A study of Rattus norvegicus with 6 samples.

Results

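The NADPH oxidases and the subunits of the phagocyte oxidase are described here in rat intervertebral disc. The genes were chosen by name as a family of enzymes that make reactive oxygen species, and not by a measured value. Earlier results of these data were known when they were chosen. All 9 names (Cybb, Cyba, Ncf1, Ncf4, Rac2, Nox1, Nox4, Duox1 and Duox2) were found among the 30562 genes of the count table. Of these, 8 passed the filter on low counts and were tested, and Nox1 did not pass.

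The libraries were made from tail discs of wild-type male Sprague–Dawley rats, 12 weeks old, in which degeneration had been started by a needle puncture. By the study's methods, 3 rats received 10 μL of PBS in the disc and 3 received 10 μL of AF-PTK@LEV@SPP1 at 1 mg/kg of siRNA, with injections started 24 h after surgery and an observation time of 8 weeks. AF-PTK@LEV@SPP1 is a vesicle fused from liposomes and bacterial outer membranes that carries siRNA against Spp1, and its annulus-binding peptide sits on a thioketal linker that reactive oxygen species cut. The sample records differ from the methods: they name an untreated control, a treatment of 14 days and macrophages sorted from mouse discs. The siRNA is described as one against mouse Spp1, and no arm with a scrambled siRNA or an empty vesicle is among the 6 libraries.

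Library totals were 17942989, 16565291 and 17489851 counts for Control replicates 1, 2 and 3. They were 17074981, 15560728 and 17855184 for AF-PTK@LEV@SPP1 replicates 1, 2 and 3. Control replicates 2 and 3 varied only 1.33 times as much as counting noise, and 16 of 14393 genes (0.111%) differed between them, against ratios of 51.3 to 106.6 for the other pairs within a group. They were therefore counted as 1 sample, which leaves 2 distinct control samples against 3. Markers of whole disc were abundant, with 31909 to 45136 normalized CPM (counts divided by the scaled size of their library) of the collagen gene Col1a1 in the control libraries and 45735 to 63995 in the others. Col2a1, the cartilage collagen, had 13868 to 21174 and 20277 to 31867. These levels are those of connective tissue, which goes against the sorted macrophages of the sample records.

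The siRNA is directed at Spp1, the gene of osteopontin, whose level was 8119.7, 4421 and 4425 normalized CPM in Control replicates 1, 2 and 3. The AF-PTK@LEV@SPP1-labelled libraries had 8044, 6869.6 and 8431. Spp1 was thus not called lower in them, with a log2 fold change of 0.31 (95% interval -0.62 to 1.24, adjusted p = 0.628) that was 0.25 to 0.81 over the alternatives, the latter without Control replicate 1, and all directions below refer to the labels.

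NADPH oxidases pass electrons from NADPH across a membrane to oxygen and so make superoxide or hydrogen peroxide. In phagocytes the catalytic subunit rests in the membrane beside a small partner chain, and on stimulation the cytosolic subunits and a Rac GTPase move to it and switch it on. Other family members work in fibroblasts, vessels, kidney and epithelia, and some need no cytosolic subunits.

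No oxidase gene was called different between the groups. At an adjusted p under 0.05, edgeR called 0 of the 8 genes tested, while 575 of all 15537 genes tested (3.7%) were called. By direction, 0 were higher, against 1.13% of all genes, and 0 were lower, against 2.57%. At an unadjusted p under 0.05 there was 1 of the 8, Nox4, as there was with DESeq2, and limma-voom gave 2, Nox4 and Duox2, where 3941, 4395 and 3982 of all 15537 genes were under that limit with edgeR, DESeq2 and limma-voom. DESeq2 and limma-voom called 0 of the 8 after adjustment. With the 6 libraries kept separate edgeR also called 0, where 18.1% of all genes were called. Normalized CPM did not overlap between the groups for 3 of the 8 (Cyba, Nox4 and Duox2), against 41.9% of all genes. With so few genes, neither count sets the family apart from the other genes. Log2 fold changes were positive for 3 and negative for 5, with a median of -0.41 beside 0.05 for all genes tested.

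**Figure D1:**
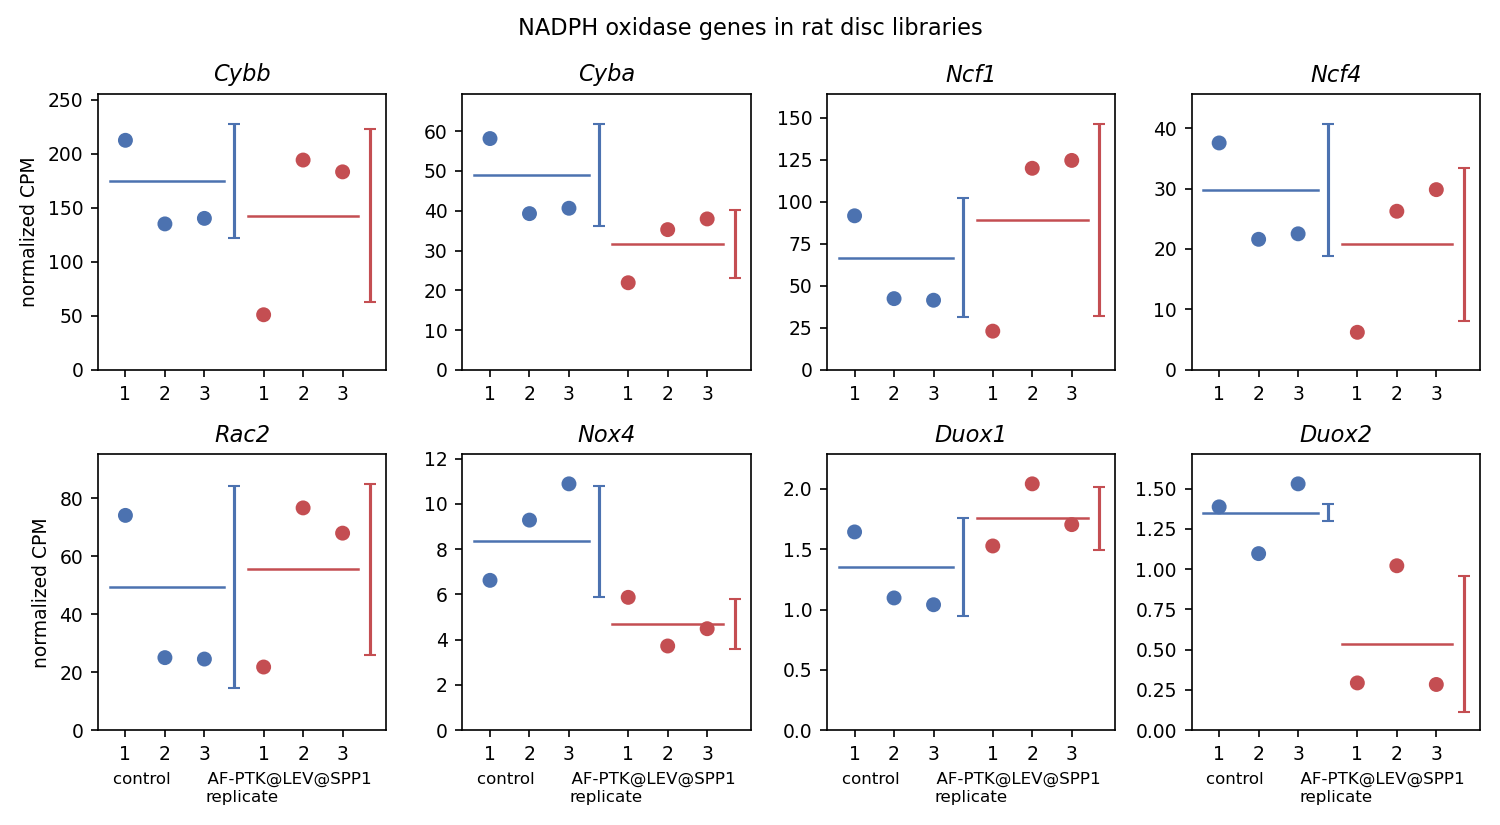
Normalized CPM (vertical axis, from 0, a separate scale for each gene) of the 8 oxidase genes tested in Control replicates 1 to 3 (blue) and AF-PTK@LEV@SPP1 replicates 1 to 3 (red); each point is a library, horizontal lines are group means, and bars are the SD over 2 distinct control samples and 3 others. For Cybb, Cyba, Ncf1, Ncf4 and Rac2, Control replicate 1 is the highest control library and AF-PTK@LEV@SPP1 replicate 1 is the lowest of its group, and the groups stand apart for Cyba, Nox4 and Duox2.

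Cybb encodes the catalytic subunit of the phagocyte oxidase, the membrane protein that carries the electrons. It had 212, 135 and 140.1 normalized CPM in Control replicates 1, 2 and 3. It had 51.0, 194 and 183 in AF-PTK@LEV@SPP1 replicates 1, 2 and 3. Control replicate 1 held the highest level and AF-PTK@LEV@SPP1 replicate 1 the lowest, and the groups overlapped. The means were 175 ± 52.8 (SD, n = 2) and 143 ± 79.6 (SD, n = 3). The log2 fold change was -0.30 (95% interval -1.78 to 1.19, adjusted p = 0.782), so that the data allow a fall or a rise of more than a doubling. Its sign turned without Control replicate 1 (0.04) and without AF-PTK@LEV@SPP1 replicate 1 (0.07). In bulk tissue, fewer cells of a type and less RNA per cell cannot be told apart, which holds for every gene below.

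Cyba encodes the membrane partner chain, which steadies the catalytic subunit and also serves several other NOX enzymes. It had 58.1, 39.3 and 40.6 normalized CPM in the control libraries. The AF-PTK@LEV@SPP1-labelled libraries had 21.9, 35.2 and 37.9. All 3 lay below the lowest control library, the nearest by a small margin. The log2 fold change was -0.63 (SE 0.29, 95% interval -1.36 to 0.10, adjusted p = 0.243), and an exact permutation test over the 5 distinct samples gave a two-sided p of 0.2, where 0.1 is the smallest this design allows.

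The estimates for the cytosolic subunit genes Ncf1 and Ncf4 differed in sign, but both intervals were wide and the difference was not tested. Ncf1, whose protein links the cytosolic complex to the membrane after phosphorylation, had 91.7, 42.4 and 41.5 normalized CPM in the control libraries. In those labelled AF-PTK@LEV@SPP1 it had 23.1, 120.0 and 125. The highest and the lowest level both lay in the group labelled AF-PTK@LEV@SPP1, a span of 5.40-fold among replicates of 1 group. Its log2 fold change was 0.42 (95% interval -1.52 to 2.36, adjusted p = 0.763), with 1.08 without Control replicate 1 and 0.10 without AF-PTK@LEV@SPP1 replicate 3. Ncf4, whose protein binds a membrane lipid of phagosomes, had 37.5, 21.6 and 22.5 normalized CPM in the control libraries and 6.22, 26.2 and 29.8 in the others. Again the groups overlapped, with AF-PTK@LEV@SPP1 replicate 1 far below the rest, and the log2 fold change was -0.52 (95% interval -2.19 to 1.14, adjusted p = 0.65).

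Rac2, the Rac GTPase of blood cells that completes the active enzyme, had 74.0, 25.0 and 24.5 normalized CPM in Control replicates 1, 2 and 3. It had 21.8, 76.6 and 67.9 in AF-PTK@LEV@SPP1 replicates 1, 2 and 3. Control replicate 1 thus resembled AF-PTK@LEV@SPP1 replicates 2 and 3, and the control pair resembled AF-PTK@LEV@SPP1 replicate 1. The log2 fold change was 0.17 (95% interval -1.56 to 1.89, adjusted p = 0.899), and its sign turned without AF-PTK@LEV@SPP1 replicate 2 (-0.13) and, at -4.36e-05, without replicate 3. It moved most without Control replicate 1, to 1.15.

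The phagocyte subunits varied widely within each group. All 5 (Cybb, Cyba, Ncf1, Ncf4 and Rac2) were higher in Control replicate 1 than in both other control libraries and lowest in AF-PTK@LEV@SPP1 replicate 1 of its group. Both held for 6 of the 8 oxidase genes tested, the other being Duox1, and for 21.3% of all genes tested. Control replicate 1 exceeded the mean of the pair by 1.46-fold for Cyba to 2.99-fold for Rac2. Within the group labelled AF-PTK@LEV@SPP1 the highest library exceeded the lowest by 1.73-fold for Cyba to 5.40-fold for Ncf1. Added together, the 5 genes had 474, 263 and 269 normalized CPM in the control libraries and 124, 452 and 443 in those labelled AF-PTK@LEV@SPP1.

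The sum of general leukocyte markers shared some features of this pattern, with Control replicate 1 the highest control library and AF-PTK@LEV@SPP1 replicate 1 the lowest of all 6. The 8 pan-leukocyte genes, all tested and led by Ptprc, the surface phosphatase CD45, summed to 726, 396 and 392 normalized CPM in the control libraries. They summed to 207, 647 and 679 in those labelled AF-PTK@LEV@SPP1. None of the 8 was called by edgeR, 0 had an unadjusted p under 0.05, and edgeR with the 6 libraries kept separate also called 0. None of the 5 phagocyte subunits is part of this sum, and their ratio to it was 65.2%, 66.5% and 68.6% in the control libraries and 59.9%, 69.9% and 65.3% in the others. The ratio thus spanned 1.17-fold over the 6 libraries, where the summed subunits spanned 3.82-fold. Single subunits had less constant ratios to the pan-leukocyte sum, which spanned 1.45-fold for Cybb to 1.94-fold for Cyba. Mean ratios were lower in the group labelled AF-PTK@LEV@SPP1 for Cybb, Cyba and Ncf4 and higher for Ncf1 and Rac2, which offset each other in the summed ratio. Only that of Ncf4 did not overlap, with 5.17%, 5.45% and 5.74% in the control libraries and 3.01%, 4.06% and 4.39% in the others. All these ratios were computed after the values were seen and carry no test. The part of leukocyte content in the levels of the subunits was not tested.

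**Figure D2:**
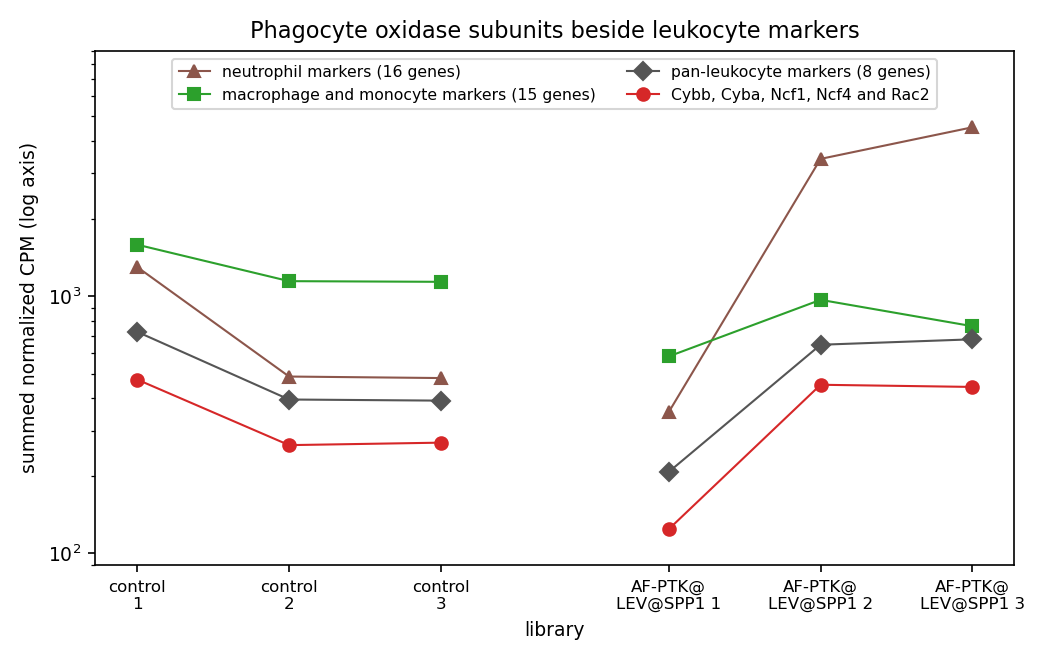
Summed normalized CPM (log axis) in each of the 6 libraries for the 5 phagocyte oxidase subunits (red circles), 8 pan-leukocyte markers (grey diamonds), 15 macrophage and monocyte markers (green squares) and 16 neutrophil markers (brown triangles); lines join libraries of a group only as a guide to the eye. The summed subunits lie below the pan-leukocyte sum at a distance that varies by 1.17-fold, the neutrophil sum spans 354 to 4535, and the macrophage sum is lower in all 3 AF-PTK@LEV@SPP1-labelled libraries than in any control library.

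Relative to Cybb in the same library, single subunits did not keep a constant ratio. Ncf1 stood at 43.2%, 31.4% and 29.6% of the Cybb level in the control libraries and at 45.2%, 61.8% and 68.1% in those labelled AF-PTK@LEV@SPP1. Rac2 stood at 34.9%, 18.5% and 17.5%, and at 42.7%, 39.5% and 37.1%. For both ratios the groups did not overlap, with the higher ratios in the AF-PTK@LEV@SPP1-labelled libraries. The gaps were small, at 43.2% in Control replicate 1 against 45.2% in AF-PTK@LEV@SPP1 replicate 1 for Ncf1. For Rac2 they were 34.9% in Control replicate 1 against 37.1% in AF-PTK@LEV@SPP1 replicate 3. How many of all genes have ratios to Cybb that do not overlap was not computed, so no shift of the subunits is read from this. Cyba and Ncf4 had ratios that overlapped between the groups, with 18.2% to 42.9% and 12.2% to 17.7% over the 6 libraries. These ratios follow from counts of genes of different length, were formed after the values were seen and were not tested.

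Macrophages, monocytes and neutrophils carry this oxidase, and no test compared their marker lists. Of 15 macrophage and monocyte markers, 14 were tested, of which 4 were called lower and 0 called higher, while edgeR with the 6 libraries kept separate called 5, all lower. Their summed level was 1585, 1143 and 1137 normalized CPM in the control libraries and 583, 967 and 764 in the others, with Cd74, the invariant chain of antigen presentation, at the highest level and Marco at 0 in all libraries. The list had a median log2 fold change of -0.90, with 13 negative and 1 positive, Cd163 (1.15, adjusted p = 0.246), which was named after its values were seen. Cd14, a co-receptor for bacterial lipopolysaccharide, had 152, 134 and 134 normalized CPM in the control libraries and 38.1, 36.0 and 41.3 in the others (log2 fold change -1.89, SE 0.12, adjusted p = 0.0119). Cd68, a lysosomal glycoprotein, fell by 1.97 on the log2 scale (adjusted p = 0.0231). Ms4a7 fell by 2.33 (adjusted p = 0.0196). Mrc1, the mannose receptor, and Csf1r, the receptor for the macrophage growth factor, had log2 fold changes of -0.96 and -0.96 and were not called (adjusted p = 0.0616 and 0.102). No subunit of the oxidase was called in the same fit, and the difference between the called markers and the subunits was not tested.

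Of 16 neutrophil markers, 15 were tested and 0 were called by edgeR, with 1 at an unadjusted p under 0.05 and 1 called by edgeR with the 6 libraries kept separate. Their summed level was 1297, 487 and 480.2 normalized CPM in the control libraries and 354, 3417 and 4535 in those labelled AF-PTK@LEV@SPP1. Replicates 2 and 3 of the latter group had the highest sums. Replicate 1 of it had the lowest, a place that rests on Lcn2, which had 283 and 289 normalized CPM in the control pair and 10.1 in that library, while S100a8, S100a9 and Ngp were higher there than in the pair. Lcn2 was named after its values were seen. The list was led by S100a9, a calcium-binding protein gene of neutrophils, at 457, 85.2 and 78.5 normalized CPM and at 107, 1055 and 1482. S100a8, its partner, had 64.7 to 475 normalized CPM in the control libraries and 99.0 to 1485 in the others, and the granule gene Ngp had 2.94 to 70.4 and 26.1 to 448. Ltf, another granule gene, was at or near 0 in all libraries. The list's median log2 fold change was 2.00. The part of neutrophil or macrophage content in the levels of the oxidase subunits was not tested.

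Osteoclasts, which are of the same lineage as macrophages, were represented by 8 markers, all tested, of which 0 were called higher and 4 lower, and 6, all lower, with separate libraries. Their sum was 5543, 3485 and 3493 normalized CPM in the control libraries and 858, 803 and 516 in the others, led by Ctsk, the collagen-degrading cathepsin. Log2 fold changes were -2.93 for Ctsk (adjusted p = 0.0306) and -3.34 for Dcstamp, needed for cell fusion (adjusted p = 0.0119). The proton pump subunit gene Atp6v0d2 had -2.72 (adjusted p = 0.0444) and the phosphatase gene Acp5 had -2.02 (adjusted p = 0.0381). Of 9 T and B cell markers, 0 were called higher and 1 lower, Cd8a of cytotoxic T cells (log2 fold change -2.19, adjusted p = 0.0363), and 3 were called with separate libraries, all lower. The list was led by the B cell receptor gene Cd79a, with means of 11.3 and 24.4 normalized CPM in the control and the AF-PTK@LEV@SPP1-labelled libraries. The part of these cells in the levels of the oxidase genes was not tested.

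The calls in these lists were lost when certain libraries were left out. Without AF-PTK@LEV@SPP1 replicate 2, and without replicate 3 of that group, edgeR called 0 genes of the whole table, with 3109 and 2699 genes at an unadjusted p under 0.05, against 3941 with all libraries. The log2 fold changes without replicate 2 and without replicate 3 were -1.84 and -1.94 for Cd14, and -3.45 and -3.18 for Dcstamp. Other tools were not run without these libraries. Without AF-PTK@LEV@SPP1 replicate 1 it called 113, and without Control replicate 1 it called 280. Cd68, Ctsk, Atp6v0d2, Acp5 and Cd8a were called in neither of these fits, and limma-voom did not call Atp6v0d2 (adjusted p = 0.0559).

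Nox4, outside the phagocyte complex, makes mainly hydrogen peroxide, pairs with the Cyba protein and is active without cytosolic subunits. It had 6.62, 9.29 and 10.9 normalized CPM in Control replicates 1, 2 and 3. It had 5.87, 3.72 and 4.49 in AF-PTK@LEV@SPP1 replicates 1, 2 and 3. Every AF-PTK@LEV@SPP1-labelled library lay below every control library, and Control replicate 1 was the control library closest to them. The means were 8.35 ± 2.45 (SD, n = 2) and 4.69 ± 1.09 (SD, n = 3). The log2 fold change was -0.84 (SE 0.30, 95% interval -1.60 to -0.08), with an unadjusted edgeR p of 0.036 that did not pass adjustment over all genes (adjusted p = 0.169). The exact permutation test gave a two-sided p of 0.2. Under the alternatives tried, the log2 fold change was -1.11 to -0.69 and the adjusted p 0.0566 to 0.363.

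Nox1, the oxidase of colon epithelium, had 2, 3 and 2 counts in the control libraries and 1, 3 and 0 in the others. All libraries were at or under 3 counts, taken as the smallest measurable level (0.167 to 0.193 CPM), so no fold is given. Its span also overlaps by 421 bases that of Cstf2 on the opposite strand in the authors' annotation.

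The dual oxidases Duox1 and Duox2 carry a peroxidase-like domain beside the oxidase and are known from thyroid and airway. Duox1 had 32, 17 and 17 counts in the control libraries and 26, 34 and 30 in the others, or 1.04 to 1.64 and 1.53 to 2.04 normalized CPM. These ranges overlapped (log2 fold change 0.38, 95% interval -0.53 to 1.29, adjusted p = 0.541). Duox2 had 27, 17 and 25 counts in the control libraries and 5, 17 and 5 in the others. In normalized CPM these were 1.39, 1.10 and 1.53 against 0.294, 1.02 and 0.284, without overlap, although AF-PTK@LEV@SPP1 replicate 2 was close to the lowest control library. The log2 fold change was -1.34 (SE 0.65, 95% interval -2.98 to 0.30, adjusted p = 0.263). The span of Duox2 overlaps that of Duoxa2 by 427 bases on the opposite strand. Reads there could be left uncounted or assigned to the wrong gene if strand was not used in counting. Spans run from gene start to gene end, and how far exons overlap was not examined.

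Of 12 further partners of the oxidases, 7 were tested and edgeR called 0, with 1 at an unadjusted p under 0.05. That gene was Duoxa1, whose protein brings DUOX enzymes to the cell surface, with 3.03, 1.74 and 1.90 normalized CPM in the control libraries and 0.998, 0.961 and 0.795 in the others. The groups did not overlap, and the log2 fold change was -1.39 (SE 0.37, 95% interval -2.32 to -0.46, adjusted p = 0.102). Duoxa1 passed the threshold with DESeq2 (adjusted p = 0.0407) and with the 6 libraries kept separate in edgeR (adjusted p = 0.0425), while limma-voom called 0 of the 7 partners. Its adjusted p was 0.0407 to 0.268 over the alternatives.

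Arhgdib, which holds small GTPases of blood cells in the cytosol, had 67.8 to 117 normalized CPM in the control libraries and 61.7 to 193 in the others (log2 fold change 0.66, 95% interval -0.73 to 2.04). Hvcn1, the proton channel that balances the charge carried by the oxidase, had 16.1 to 20.5 and 8.10 to 18.1 (log2 fold change -0.39, 95% interval -1.30 to 0.52). Its span overlaps Tctn1 on the opposite strand by 7078 bases, so the same reserve on strand applies to it.

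Partners that are expressed in most cell types varied little. Rac1, the widely expressed Rac GTPase, had 131 to 143 normalized CPM in the control libraries and 117 to 132 in the others (log2 fold change -0.14, 95% interval -0.43 to 0.16). Cybc1, a chaperone of the Cybb and Cyba proteins, had 40.6 to 42.2 and 38.1 to 43.0 (log2 fold change -0.04, 95% interval -0.30 to 0.22). Rap1a, a small GTPase found with the membrane subunits, had 119.6 to 132 and 104 to 109.8 without overlap (log2 fold change -0.23, 95% interval -0.50 to 0.04). The remaining 5, Nox3, Noxo1, Noxa1, Duoxa2 and Rac3, had at most 5 counts in any library and were not tested.

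Genes that act upstream of the phagocyte oxidase, among them receptors, kinases, exchange factors, a phospholipase and the transcription factor gene Spi1, were represented by 25 genes, all tested, of which 0 were called higher and 1 lower. With separate libraries edgeR called 3, of which 2 were lower. Over all 25, the median log2 fold change was 0.20. The gene called was Pla2g4a, the phospholipase that releases arachidonic acid. It had 38.9, 58.1 and 56.9 normalized CPM in the control libraries and 16.3, 17.1 and 21.2 in the others (log2 fold change -1.41, SE 0.22, adjusted p = 0.0407), and was not called without any 1 of the 3 AF-PTK@LEV@SPP1-labelled libraries. In this gene the control pair was above Control replicate 1 and the 3 AF-PTK@LEV@SPP1-labelled libraries were close together, unlike the subunits. Itgb2, the integrin chain of leukocytes, had 90.5 to 150.2 normalized CPM in the control libraries and 30.4 to 109 in the others. The kinase gene Lyn had 61.0 to 112 and 30.3 to 72.5, and Prex1, an exchange factor for Rac, had 55.1 to 76.9 and 71.7 to 82.9. Of the 25 genes, 23 were higher in Control replicate 1 than in the pair, and 23 were lowest of their group in AF-PTK@LEV@SPP1 replicate 1, against 43.5% and 37.7% of all genes tested.

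Enzymes that remove superoxide and peroxide were listed whatever the source of these molecules in the cell, and whether they act on products of the oxidases was not measured. Of 13 such genes tested, 0 were called higher and 2 lower. With separate libraries edgeR called 6, of which 3 were lower and the rest higher. Over all 13, the median log2 fold change was 0.08. Sod2, the mitochondrial superoxide dismutase, had 756, 939.9 and 959 normalized CPM in the control libraries. It had 91.0, 89.9 and 110.1 in those labelled AF-PTK@LEV@SPP1. The replicates lay close together and far from the other group, with a log2 fold change of -3.14 (SE 0.19, adjusted p = 0.0119). Prdx5, a peroxidase of mitochondria and peroxisomes, had 293, 312 and 306 against 66.5, 81.6 and 85.4 (log2 fold change -1.95, SE 0.15, adjusted p = 0.0159). Prdx1, a cytosolic peroxidase, had 299 to 326 and 169 to 225 and was not called (log2 fold change -0.66, adjusted p = 0.0917). Gpx1, the main cytosolic glutathione peroxidase, had 208 to 289.8 and 186 to 308 (log2 fold change 0.08). Whether the removing enzymes differ from the oxidases in their change was not tested.

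Cells of the disc and its surroundings were followed through further marker lists, in which edgeR called no gene. The 10 nucleus pulposus and chondrocyte markers, led by Col2a1, had a median log2 fold change of 1.36, and 5 had an unadjusted p under 0.05. The 8 annulus fibrosus and fibroblast markers, led by Col1a1, had a median of 0.48, with 2 under that limit. The 6 adipocyte markers, led by Fabp4, had a median of 2.40, with 5 under it, and summed to 67.1 to 388 normalized CPM in the control libraries and 683 to 1555 in the others. The 5 skeletal muscle markers, led by Acta1, summed to 937 to 1189.6 and 924 to 9455, with 0 under it. The 7 endothelial markers, led by Pecam1, had a median of -0.44, with 4 under it, and the 7 smooth muscle and pericyte markers, led by Acta2, a median of 0.01, with 2 under it. Of 7 epithelial markers, led by Cdh1, 3 were tested and 0 were under it, with sums of 6.42 to 12.3 and 11.5 to 35.6. With the 6 libraries kept separate, edgeR called 2, 1, 2, 0, 4, 1 and 0 genes of these lists in the order given. Several of these marker sums thus differed between libraries, and their part in the levels of Nox4, Duox1 and Duox2 was not tested.

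The genes whose pattern over the 5 distinct samples was most like that of Cybb, by the root mean square difference of centred log2 CPM among 10094 genes, were Plek (0.0481), an unnamed gene with the identifier ENSRNOG00000068731 (0.0789), Sema4a (0.111), Fcer1g (0.125) and Itgb2 (0.127), where the median gene differed by 0.798. Plek had 33.0, 23.3 and 21.8 normalized CPM in the control libraries and 7.63, 29.6 and 29.8 in the others. For Nox4 the nearest among 10095 genes were Calu (0.0232), Efemp2 (0.0558), Mapk6 (0.0714), Spsb1 (0.0785) and Tax1bp3 (0.0801), against a median of 0.514. Calu had 776, 1122 and 1139.9 normalized CPM in the control libraries and 664, 422 and 513 in the others. The genes nearest to Cybb and those nearest to Nox4 share no name. Such short lists from so many genes would seldom share one, so no conclusion is drawn from this.

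Because all 5 phagocyte subunits were highest of the controls in Control replicate 1 and lowest of their group in AF-PTK@LEV@SPP1 replicate 1, the promoters of the family were searched for 3 short motifs on both strands, in 250 bases before and 50 after the start of each gene (RefSeq, build GRCr8). Of the 9 oxidase genes, 7 were matched, and Ncf4 and Rac2 were not. The core GAGGAAG bound by the transcription factor PU.1 was found in 1 of 7, Nox1, and in 12.4% of 33469 promoters. The AP-1 site TGACTCA was found in 0 of 7 and in 4.63% of all. The letters CCAAT were found in 1 of 7, Cybb, and in 37.5% of all. Both copies in the Cybb promoter are printed below because Cybb is the catalytic subunit. They lie 203 and 79 bases before the start on the minus strand, and capitals mark the motif.
Cybb, chrX:16065244-16065288, minus strand: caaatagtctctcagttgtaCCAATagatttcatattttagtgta
Cybb, chrX:16065120-16065164, minus strand: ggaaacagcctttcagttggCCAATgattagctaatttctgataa
A match of letters describes the sequence and says nothing of binding. Spi1, which encodes PU.1, had 47.0, 25.0 and 25.0 normalized CPM in the control libraries and 8.40, 24.4 and 25.2 in the others (log2 fold change -0.90, 95% interval -2.24 to 0.45, adjusted p = 0.343). Spi1 is 1 of the 25 upstream genes above and was picked for naming after its values were seen.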

How the data were processed

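The counts used here are those the authors deposited, whole numbers of reads per Ensembl rat gene without normalization. The submitters' processing notes name FastQC, Trimmomatic, HISAT2, featureCounts, DESeq2 and the mouse build mm10, without roles, while the gene identifiers are those of rat. The use of strand in counting is not given in the sources used here. Counts were tested with edgeR 4.0.16 in R 4.3.3 (TMM scaling, filterByExpr with a minimum count of 10, quasi-likelihood test, Benjamini-Hochberg adjustment over all genes tested), with Control replicates 2 and 3 summed as 1 sample. The common biological coefficient of variation was 0.302. The procedure was tested on simulated data. Alternatives were DESeq2 1.42.0, limma-voom (limma 3.58.1), other scalings and filters, a robust fit, a fold threshold, 6 separate libraries, a replicate block and each library left out. Log2 CPM used a prior count of 2. Genes named are the oxidases, partners of theirs, the 3 most abundant genes of each other list and its 3 called genes with the most change, and the 5 genes nearest in pattern to Cybb and to Nox4. Acp5 was added after its values were seen. Some genes of the lists are counted but not reported here by name. The members and lists were chosen with earlier results of these data known. Exon lengths were not used here, so ratios and ranks of different genes compare counts, which also depend on gene length. Intervals of counts and the floor of 3 counts cover counting error only.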

Additional observations from a re-analysis of the deposited data

How the results depend on the processing

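No oxidase gene was called under any of the 17 alternatives, each of which changed 1 choice, save that the replicate block also kept the 6 libraries separate. Some of these add nothing on the oxidases. The fold threshold could only remove calls from the main fit. Without AF-PTK@LEV@SPP1 replicate 2, or without replicate 3, no gene of the whole table was called. Libraries were left out with edgeR only, and Duox1 and Duox2 were not tested at a minimum count of 50. The number of genes called in the whole table moved from 575 (175 higher and 400 lower) to 2727 (1233 and 1494) with 6 separate libraries and to 2572 (1132 and 1440) with DESeq2. Deviations of libraries of the same replicate number from their group means correlated at -0.32, -0.27 and -0.08. With so few libraries and a near-identical control pair, these values cannot show whether the numbers mark a shared animal or day. In a fit of 6 libraries with a replicate block, 741 genes were called, 307 of them higher. Leaving out 1 library gave 0 to 566 genes called, 0 to 170 higher and 0 to 396 lower, and with a lone control sample its spread is assumed to be that of the others. The log2 fold change of Cybb was 0.04 without Control replicate 1 and 0.074 without AF-PTK@LEV@SPP1 replicate 1, within -0.58 to 0.07 over the alternatives. For Rac2 it was -0.13 without AF-PTK@LEV@SPP1 replicate 2 and -4.36e-05 without replicate 3, within -0.13 to 1.15, the latter without Control replicate 1. The other oxidase genes kept their sign but not their size, within 0.10 to 1.08 for Ncf1, -0.87 to -0.10 for Ncf4, -0.78 to -0.34 for Cyba, 0.26 to 0.71 for Duox1, -2.20 to -1.03 for Duox2 and -1.11 to -0.69 for Nox4. Without Control replicate 1 it was 1.08 for Ncf1, -0.10 for Ncf4, -0.34 for Cyba and 0.71 for Duox1, and without AF-PTK@LEV@SPP1 replicate 2 -2.20 for Duox2. The cause of these changes was not tested. At this depth Nox1, Duox1 and Duox2 had at most 34 counts in a library.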
